A study of Mus musculus with 20 samples.

Results

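Mouse Sod1 and 5 other antioxidant enzymes, Sod2, Cat, Gpx1, Prdx2 and Txn2, were followed in mouse muscle across 20 arrays. All 13 probe sets whose platform symbol was one of these 6 genes were taken, out of 10748 probe sets on the table and 6603 genes with a probe set of their own. The microarrays measured RNA of whole muscle from female C57BL/6 mice at 14 weeks of age, with 4 arrays in each of 5 groups. Gastrocnemius (a hind limb muscle) and triceps (a forelimb muscle) came from mice carrying the humanSODG93A transgene at a symptomatic stage, called SOD1 here, and from non-transgenic mice, called NTg. SOD1G93A mice are a widely used model of amyotrophic lateral sclerosis, in which motor neurons die and muscles lose their nerve supply. The fifth group was gastrocnemius of mice whose sciatic nerve was crushed for 30 s at 12 weeks of age, taken 2 weeks later, which the study's design names as a control for denervation. The labels used here give no sham-operated group and no genotype for the crushed mice beyond the strain, and no promoter, copy number or line of the transgene. The design text counts 4 SOD1 and 4 NTg mice for both muscles, so the muscles of a genotype may share animals, and p-values measure the spread between these samples.

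These enzymes remove superoxide and peroxides, by-products of respiration and of oxidases that muscle makes at rest and in contraction. Superoxide dismutases turn superoxide into hydrogen peroxide, Sod1 mostly in the cytosol with copper and zinc and Sod2 in the mitochondrial matrix with manganese. Catalase (Cat, in peroxisomes), glutathione peroxidase 1 (Gpx1) and peroxiredoxin 2 (Prdx2) then remove hydrogen peroxide, and thioredoxin 2 (Txn2) hands electrons to the mitochondrial peroxiredoxins.

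Values were log2 MAS5 signals, so a difference of 1 is a doubling, and a level says nothing about another gene's level because probe sets differ in how well they hybridise. A probe set was called changed when limma's adjusted p was below 0.05 over the 7523 probe sets tested. Of the 13 probe sets, 11 passed the filter on mean level, log2 5.88. The others were a dim Sod1 set (1435304_at, mean 5.66) and a dim Sod2 set (1417194_at, mean 5.06), while the lowest set inside was Prdx2 1430979_a_at at 6.56. Array medians lay between 6.61 and 6.76. The fourth nerve-crush array stood apart from its group, with a mean correlation of 0.905 to the others against 0.951 to 0.954 for those. Several results on crushed muscle, but not all, are therefore also given without it. The description of the fourth NTg triceps array names gastrocnemius while its title and tissue name triceps. Hoxd10, a position gene of the hind limb, read between log2 0.01 and 1.05 on the 4 NTg triceps arrays. On all gastrocnemius arrays it read between 2.42 and 5.35, so the level of the fourth NTg triceps array lies with triceps. All these Hoxd10 values are below the filter level of log2 5.88. The 1 tested gene of the hind limb position list differed by log2 -0.035 between the NTg muscles, without a call. The summed linear signal of 9 slow fibre markers was 337 to 1886 on the NTg triceps arrays and 9576 to 30921 on the NTg gastrocnemius arrays. All 13 skeletal muscle fibre markers were on the table, and none was called in the gastrocnemius or triceps comparisons with NTg, though all 13 were lower in SOD1 than in NTg triceps (median log2 -0.55).

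Gpx1 (1460671_at), the abundant selenium enzyme that reduces hydrogen peroxide with glutathione, rose in both diseased and crushed gastrocnemius. Log2 signals in NTg gastrocnemius were 8.81, 8.74, 8.54 and 8.43 on replicates 1 to 4. In SOD1 gastrocnemius they were 9.17, 9.57, 9.43 and 9.52, and after nerve crush 9.53, 9.83, 9.68 and 10.40. Every SOD1 and every crushed array was above all 4 NTg arrays. In SOD1 gastrocnemius Gpx1 was 1.74-fold higher than in NTg (log2 0.80, SE 0.19, 95% interval 0.40 to 1.19, adjusted p = 0.0130). After crush it was 2.35-fold higher than in NTg (log2 1.23, SE 0.19, 95% interval 0.84 to 1.63, adjusted p = 0.00136), and 1.05 on the log2 scale without the fourth crush array (adjusted p = 0.00191). The crush call was kept whichever of the 20 arrays was left out. The SOD1 call was lost without the fourth SOD1 gastrocnemius array (log2 0.76, adjusted p = 0.0554) and kept without each of the other 19.

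In triceps Gpx1 showed no such separation. NTg triceps gave 8.77, 9.08, 8.77 and 9.26 and SOD1 triceps 8.96, 8.59, 9.24 and 9.41, so that the groups overlapped, with a difference of log2 0.08 (95% interval -0.31 to 0.47, adjusted p = 0.850). The difference between the SOD1 effects in the 2 muscles was log2 0.71 (SE 0.27, unadjusted p = 0.0141), which did not pass after adjustment (adjusted p = 0.462). The order of group means ran from crushed gastrocnemius (9.86 ± 0.38, SD, n = 4) through SOD1 gastrocnemius (9.43 ± 0.18), SOD1 triceps (9.05 ± 0.36) and NTg triceps (8.97 ± 0.24) to NTg gastrocnemius (8.63 ± 0.18), and each neighbour in this order overlapped with the next.

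**Figure D1:**
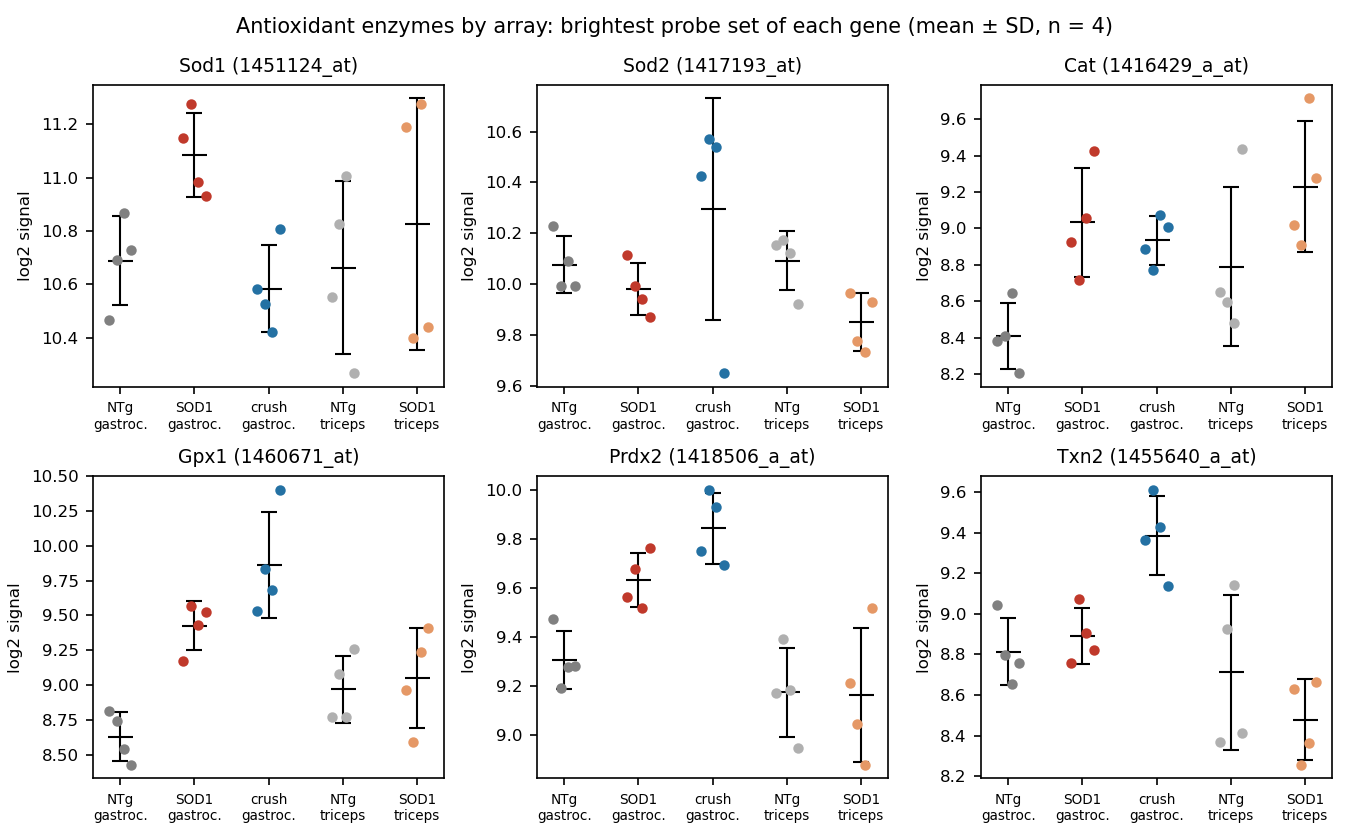
Log2 signal of the brightest probe set of each of the 6 genes on every array (points, replicates 1 to 4 from left to right), with the group mean and SD (n = 4); the vertical axes differ between panels. Gpx1 in crushed gastrocnemius lies between 9.53 and 10.40, above all NTg gastrocnemius arrays (8.43 to 8.81), and Sod2 shows the fourth crush array at 9.65, below its group.

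Catalase (Cat), the peroxisomal enzyme that splits hydrogen peroxide into water and oxygen, gave a call on only 1 of its probe sets. On 1416429_a_at the NTg gastrocnemius arrays read 8.38, 8.41, 8.64 and 8.21 and the SOD1 gastrocnemius arrays 8.93, 8.72, 9.06 and 9.43, with no overlap. The difference was 1.54-fold (log2 0.62, SE 0.20, 95% interval 0.21 to 1.04, adjusted p = 0.0472). On 1416430_at the same arrays read 8.41, 8.37, 8.59 and 8.14 in NTg and 8.49, 8.30, 8.61 and 8.90 in SOD1, which overlap, and the difference was log2 0.20 (95% interval -0.26 to 0.66, adjusted p = 0.586). The Cat call is close to the threshold. It was kept in 8 of 20 fits with 1 array left out and lost without any 1 of the 4 NTg gastrocnemius arrays, SOD1 gastrocnemius arrays 2, 3 and 4, crush arrays 1 to 3 or NTg triceps arrays 1 and 2, reaching adjusted p = 0.177 at log2 0.49 without SOD1 array 4. With the 2 probe sets averaged, Cat differed by log2 0.41 (adjusted p = 0.197).

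After nerve crush Cat 1416429_a_at read 8.89, 8.77, 9.07 and 9.01, all above NTg, but the difference of log2 0.53 was not called (SE 0.20, adjusted p = 0.139; 0.0391 when only the compared arrays were fitted). In triceps both Cat probe sets were higher in SOD1 by a similar size, log2 0.44 (adjusted p = 0.305) and 0.43 (adjusted p = 0.353), without a call. On 1416429_a_at NTg triceps read 8.65, 8.60, 8.48 and 9.43 and SOD1 triceps 9.02, 8.91, 9.71 and 9.28. The highest triceps arrays of each genotype were NTg replicate 4 and SOD1 replicate 3, and the same arrays had the highest summed linear signal of 5 adipocyte markers in triceps (10873 and 8378, against 2419 to 4413 on the other 6). The part of adipocyte RNA in the Cat values was not tested. In a bulk sample, fewer cells of a type and less RNA per cell cannot be told apart.

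Prdx2, a cytosolic peroxiredoxin that reduces peroxides with electrons from thioredoxin, rose after nerve crush on its brighter probe set. On 1418506_a_at the NTg gastrocnemius arrays read 9.47, 9.19, 9.28 and 9.28 and the crushed arrays 9.75, 10.00, 9.93 and 9.69. All crushed arrays lay above all NTg arrays, and the difference was 1.45-fold (log2 0.54, SE 0.13, 95% interval 0.27 to 0.81, adjusted p = 0.0255). It was 0.59 on the log2 scale without the fourth crush array (adjusted p = 0.0182). The call was lost without NTg gastrocnemius array 2, 3 or 4 or crush array 2 or 3 (log2 0.49 to 0.53, adjusted p up to 0.0860).

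In SOD1 gastrocnemius Prdx2 1418506_a_at read 9.56, 9.68, 9.52 and 9.76, again above every NTg array. The difference of log2 0.32 was not called by limma (SE 0.13, 95% interval 0.05 to 0.60, adjusted p = 0.105). When only the compared arrays were fitted, adjusted p was 0.0330, in a fit that called 1768 of all tested sets against 902. In triceps the NTg arrays read 9.17, 9.39, 9.18 and 8.95 and the SOD1 arrays 9.21, 9.04, 8.88 and 9.52, a difference of log2 -0.01 (95% interval -0.28 to 0.26).

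The dimmer Prdx2 probe set, 1430979_a_at, gave another pattern. It read 6.23, 6.44, 6.52 and 6.60 in NTg gastrocnemius, 6.77, 6.87, 6.75 and 6.62 in SOD1 gastrocnemius and 6.61, 6.34, 6.48 and 5.96 after crush. SOD1 arrays were above NTg by log2 0.31 (adjusted p = 0.159) and crushed arrays were lower by log2 -0.10 (adjusted p = 0.750), both without a call. Its correlation with the brighter set was -0.25 over the 20 arrays, so the Prdx2 crush result rests on the brighter set alone, and with both sets averaged the crush difference was log2 0.22 (adjusted p = 0.237). Which transcripts each set reads was not looked at here, since no probe sequences were used.

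**Figure D2:**
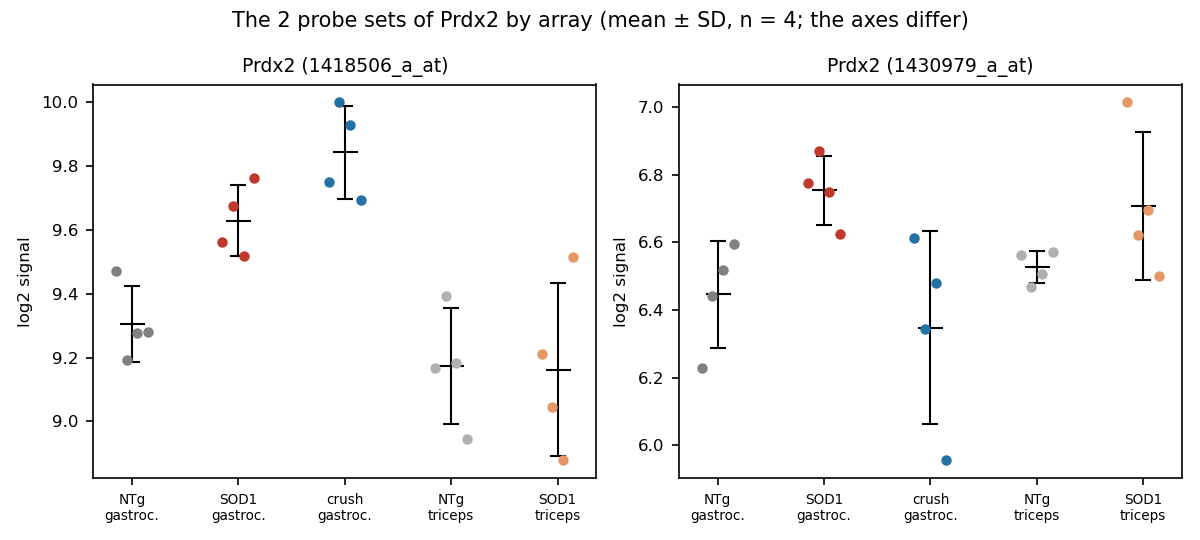
Log2 signal of the 2 probe sets of Prdx2 on every array (points) with group mean and SD (n = 4); the vertical axes differ. On 1418506_a_at the crushed arrays (9.69 to 10.00) lie above NTg gastrocnemius (9.19 to 9.47), while on 1430979_a_at they run from 5.96 to 6.61 and overlap with it.

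Txn2, the mitochondrial thioredoxin, rose after nerve crush on 2 of its 3 probe sets and showed no call in SOD1 muscle. On 1421557_x_at, a set whose suffix marks probes that can match other sequences, NTg gastrocnemius read 8.60, 8.64, 8.37 and 8.52 and crushed gastrocnemius 9.05, 9.30, 9.30 and 8.91. The difference was 1.52-fold (log2 0.61, SE 0.14, 95% interval 0.31 to 0.91, adjusted p = 0.0232), with no overlap. On 1455640_a_at the NTg arrays read 9.04, 8.80, 8.66 and 8.76 and the crushed arrays 9.36, 9.61, 9.43 and 9.14, also without overlap, a 1.49-fold difference (log2 0.57, SE 0.16, 95% interval 0.24 to 0.91, adjusted p = 0.0491). The third set, 1452782_a_at, read 8.15, 8.56, 8.44 and 8.27 in NTg and 8.77, 8.90, 8.94 and 8.08 after crush, a difference of log2 0.32 (adjusted p = 0.326). On this set the fourth crush array was below every NTg gastrocnemius array, and without it the 3 differences were log2 0.69 (adjusted p = 0.0128), 0.65 (adjusted p = 0.0289) and 0.52 (adjusted p = 0.0542).

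The call on Txn2 1421557_x_at was lost without NTg gastrocnemius array 3 or 4 or crush array 2 or 3 (adjusted p up to 0.0720), and that on 1455640_a_at was kept in only 6 of 20 such fits (adjusted p up to 0.137, without NTg gastrocnemius array 3). With the 3 Txn2 probe sets averaged, the crush difference was log2 0.50 (adjusted p = 0.0542). In SOD1 gastrocnemius the 3 sets differed from NTg by log2 0.08, 0.07 and 0.04, each with an interval from below 0 to at most 0.42. SOD1 gastrocnemius was below crushed gastrocnemius without overlap on 1455640_a_at (8.76, 9.08, 8.90 and 8.82) and on 1421557_x_at (8.72, 8.58, 8.55 and 8.55). Those differences, log2 -0.50 (SE 0.16, adjusted p = 0.226) and -0.54 (SE 0.14, adjusted p = 0.165), were not called in the fit on all arrays. Without the fourth crush array they were log2 -0.58 (adjusted p = 0.0394) and -0.62 (adjusted p = 0.0171). Sod2 1417193_at was also called lower in SOD1 in that limma fit (log2 -0.53, adjusted p = 0.00584). The same fit called 604 of all tested sets, against 0 in the fit on all arrays, so these calls came with many others.

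Sod1, the enzyme whose human mutant form these mice carry, is represented by the mouse probe set 1451124_at. It read 10.47, 10.69, 10.87 and 10.73 in NTg gastrocnemius and 11.15, 11.28, 10.98 and 10.93 in SOD1 gastrocnemius. The SOD1 arrays were all above the NTg arrays, and the difference was 1.32-fold (log2 0.40, SE 0.19, 95% interval -0.0031 to 0.80), which was not called (adjusted p = 0.172). The exact permutation test on this probe set alone gave p = 0.0286, the smallest that 4 arrays against 4 allow. Any set whose groups do not overlap reaches that value, and 26% of all tested sets did not overlap. The limma fit on the compared arrays alone gave adjusted p = 0.0292, and that fit called 1768 of all tested sets against 902 in the fit on all arrays. Whether human transgene RNA binds these mouse probes was not tested.

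Crushed gastrocnemius had Sod1 signals of 10.58, 10.53, 10.42 and 10.81, overlapping with NTg (log2 -0.10, 95% interval -0.50 to 0.30, adjusted p = 0.805). SOD1 gastrocnemius lay above crushed gastrocnemius without overlap, by log2 0.50 (SE 0.19, 95% interval 0.10 to 0.90), again without a call (adjusted p = 0.293). In triceps the NTg arrays read 10.55, 10.82, 11.01 and 10.27, and the SOD1 arrays fell into a high pair, 11.19 and 11.28 on replicates 1 and 3, and a low pair, 10.40 and 10.44 on replicates 2 and 4. The triceps difference was log2 0.16 (95% interval -0.24 to 0.56, adjusted p = 0.683), and the SD within SOD1 triceps was 0.47 against 0.16 in SOD1 gastrocnemius. The dim Sod1 set 1435304_at lay between 5.02 and 6.09 on all arrays, and its correlation with the bright set was -0.13.

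Sod2, the manganese enzyme of the mitochondrial matrix, showed no call in the fit on all arrays. On 1417193_at it read 10.23, 9.99, 10.09 and 9.99 in NTg gastrocnemius and 10.11, 9.99, 9.94 and 9.87 in SOD1 gastrocnemius, a difference of log2 -0.10 (95% interval -0.42 to 0.22). After crush it read 10.42, 10.57, 10.54 and 9.65, so that 3 arrays were above every NTg gastrocnemius array and the fourth below every one. The second set, 1448610_a_at, had the same shape, with 9.70, 9.73, 9.90 and 9.16 after crush against 9.21, 9.28, 9.34 and 9.30 in NTg. With all arrays the Sod2 crush differences were log2 0.22 (adjusted p = 0.453) and 0.34 (adjusted p = 0.200). Without the fourth crush array they were log2 0.44 (SE 0.10, adjusted p = 0.0187) and 0.49 (SE 0.13, adjusted p = 0.0330), both called.

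The same array had the lowest summed linear signal of 46 respiratory chain genes in its group, 105241 against 135173 to 173145 on the other 3, and the part of this difference in the Sod2 result was not tested. In triceps Sod2 was lower in SOD1 on both sets, by log2 -0.24 (adjusted p = 0.442) and -0.19 (adjusted p = 0.528). On 1417193_at the values were 10.15, 10.17, 10.12 and 9.92 in NTg and 9.96, 9.78, 9.73 and 9.93 in SOD1 triceps, which overlap. All 13 skeletal muscle fibre markers and all 46 respiratory chain genes were lower in SOD1 triceps too, with medians of log2 -0.55 and -0.40, and their part in the Sod2 difference was not tested. The dim set 1417194_at lay between 4.17 and 5.76 on all arrays.

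**Figure D3:**
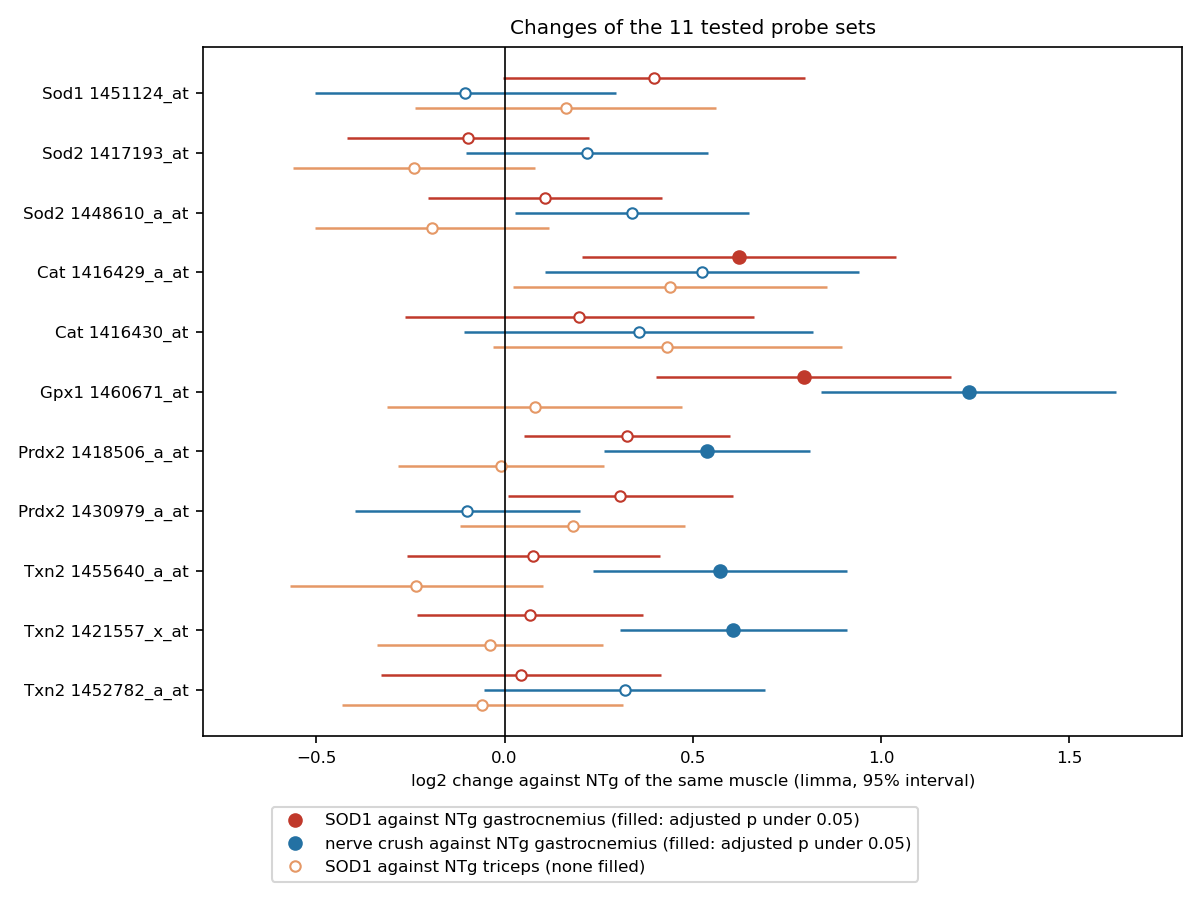
Log2 change of each of the 11 tested probe sets against NTg of the same muscle (horizontal axis; limma estimate with 95% interval), for SOD1 gastrocnemius, crushed gastrocnemius and SOD1 triceps; filled circles mark adjusted p below 0.05. Filled circles stand at Gpx1 (0.80) and 1 Cat set (0.62) for SOD1 gastrocnemius, and at Gpx1 (1.23), 1 Prdx2 set (0.54) and 2 Txn2 sets (0.57 and 0.61) for crush.

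Counted over the 6 enzymes, 2 of 11 tested probe sets were called in SOD1 gastrocnemius, both higher, in the genes Gpx1 and Cat. In that comparison 12% of all tested probe sets were called, and 5.97% were called higher, and a count of 2 in 11 is too few to set the members apart from these shares. The groups did not overlap on 5 of 11 member sets (Sod1, Cat, Gpx1 and both of Prdx2), all with SOD1 higher, against 26% of all tested sets in either direction and 12.7% in that one. Of the 11 sets, 10 had a positive difference, and the median was log2 0.20 against -0.0015 over all tested sets.

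After nerve crush 4 of 11 member sets were called, all higher, in the 3 genes Gpx1, Prdx2 and Txn2. The 2 called Txn2 sets read the same gene and correlated at 0.90 over the 20 arrays, so the 4 calls are not independent. With probe sets averaged per gene, 1 gene was called. Among all tested sets 4.13% were called, and 1.08% were called higher, with most calls being decreases. The groups did not overlap on 5 of 11 member sets, all with crush higher, against 16.4% of all in either direction and 6.94% in that one. The member median was log2 0.36 against 0.017 over all sets, and 9 of 11 differences were positive. Both gastrocnemius comparisons use the same 4 NTg arrays, so their values for a member are not independent of each other.

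In triceps none of the 11 member sets was called by limma between SOD1 and NTg, where 0.239% of all sets were called, and 1 (Cat 1416429_a_at) had an unadjusted p below 0.05, against 15.2% of all. None of the member sets separated the triceps groups without overlap, against 6.99% of all, and the median was log2 -0.01. Directly between SOD1 and crushed gastrocnemius, limma called 0 of 11 member sets and 0% of all sets, while 5 member sets had an unadjusted p below 0.05, against 12.5% of all. The 5 were Sod1 and Prdx2 1430979_a_at, higher in SOD1, and Gpx1 and 2 Txn2 sets, higher after crush, and on 4 of them, all but Gpx1, the groups did not overlap, against 5.48% of all. Of these, Gpx1 differed by log2 -0.44 (SE 0.19, adjusted p = 0.350) and Prdx2 1430979_a_at by 0.41 (SE 0.14, adjusted p = 0.258). Without the fourth crush array these 2 differences were smaller, log2 -0.26 and 0.27, and neither was called.

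The difference of the SOD1 effects between gastrocnemius and triceps was called by limma for 0 of 11 member sets and 0% of all, with 1 member set, Gpx1, and 9.44% of all at an unadjusted p below 0.05. Between the 2 muscles of NTg mice, 0 of 11 member sets were called by limma and none had an unadjusted p below 0.05, against 1.71% called and 14.3% at an unadjusted p below 0.05 over all sets. The widest differences there were Cat 1416429_a_at at log2 -0.38 (adjusted p = 0.406) and Gpx1 at -0.34 (adjusted p = 0.441), both lower in gastrocnemius.

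Sequence just upstream of the genes is shown for the 3 that were called together after nerve crush, Gpx1, Prdx2 and Txn2, and for Sod1, which was not. The 250 bases before each start come from the RefSeq table of mouse promoters (build GRCm38.p6), in which all 6 genes were found. The stretches are chr9:108338830-108339079 for Gpx1, chr8:84969372-84969621 for Prdx2 and chr16:90220512-90220761 for Sod1, all on the plus strand, and chr15:77928995-77929244 on the minus strand for Txn2. They are written 5′ to 3′ with the gene, and capitals mark matches on either strand to the searched motifs.
Gpx1: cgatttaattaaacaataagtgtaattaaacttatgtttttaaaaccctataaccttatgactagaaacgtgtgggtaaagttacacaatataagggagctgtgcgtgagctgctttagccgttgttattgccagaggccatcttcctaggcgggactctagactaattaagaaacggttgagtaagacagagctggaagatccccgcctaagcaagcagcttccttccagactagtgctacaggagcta
Prdx2: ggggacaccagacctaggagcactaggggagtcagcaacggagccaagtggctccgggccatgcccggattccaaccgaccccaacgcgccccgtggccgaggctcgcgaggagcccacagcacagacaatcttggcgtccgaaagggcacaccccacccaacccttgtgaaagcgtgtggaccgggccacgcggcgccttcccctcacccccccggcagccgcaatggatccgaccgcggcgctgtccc
Txn2: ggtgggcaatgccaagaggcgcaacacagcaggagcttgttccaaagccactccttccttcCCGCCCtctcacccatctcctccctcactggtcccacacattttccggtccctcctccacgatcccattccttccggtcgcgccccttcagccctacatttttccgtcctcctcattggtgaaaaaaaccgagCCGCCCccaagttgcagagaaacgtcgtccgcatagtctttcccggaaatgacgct
Sod1: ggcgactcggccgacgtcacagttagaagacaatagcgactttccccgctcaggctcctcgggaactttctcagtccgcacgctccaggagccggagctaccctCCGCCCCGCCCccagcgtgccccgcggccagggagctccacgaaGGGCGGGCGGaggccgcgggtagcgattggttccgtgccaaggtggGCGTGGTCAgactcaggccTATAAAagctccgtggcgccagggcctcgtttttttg
The motifs were TGACNNNGC, the core of the antioxidant response element bound by Nrf2, GGGCGG, the GC box, TATAAA, the TATA box, and the palindrome bound by the respiratory gene factor NRF1. In Sod1 the search found 1 antioxidant response element core on the opposite strand, from base -56 to -48, 4 GC boxes, of which neighbouring ones overlap, and 1 TATA box, from base -37 to -32. Over all 32851 promoters in the table, 10.2% held that core, 32.7% a GC box, 12.4% a TATA box and 0.782% the NRF1 palindrome. Txn2 held 2 GC boxes, and none of the 4 motifs was in the Gpx1 or Prdx2 stretch. Of the others, Sod2 held 4 GC boxes and Cat 1. The Gpx1 stretch had 42.0% G and C, below the median of 52.4% over all promoters, and the other 5 genes had 57.6% to 69.2%. A match in these letters is a description of the sequence and does not show that a factor binds.

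The wider antioxidant system was read from gene lists of the same pathways, with 1 probe set a gene. Beside the counts of these lists, limma called 12% of all tested probe sets in SOD1 gastrocnemius, 0.239% in SOD1 triceps and 4.13% after crush. Among 4 tested genes of superoxide dismutation and copper delivery, none was called in the gastrocnemius or triceps comparisons with NTg. Of 4 tested catalase and glutathione peroxidase genes, 2 were called higher in SOD1 gastrocnemius, 0 in SOD1 triceps and 1 after crush. All 4 were lower in NTg gastrocnemius than in NTg triceps, without a call (median log2 -0.36). The summed linear signal of the list's 6 genes on the table was 2991 to 3574 in NTg gastrocnemius and 4537 to 5405 in NTg triceps. Of 3 tested peroxiredoxin genes, Prdx2 alone was called, after crush. Among 11 tested genes of the thioredoxin and glutaredoxin system, 2 were called higher and 1 lower in SOD1 gastrocnemius, 1 higher in SOD1 triceps, and 2 higher and 1 lower after crush.

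The gene called lower in both gastrocnemius comparisons was Txnip, which binds thioredoxin and blocks its active site. Txnip read 10.98, 10.71, 10.41 and 10.75 in NTg gastrocnemius, 10.17, 9.92, 9.62 and 9.89 in SOD1 gastrocnemius and 9.45, 9.50, 9.17 and 9.26 after crush. Every SOD1 and crushed array was below every NTg array. Txnip fell by 0.82 on the log2 scale in SOD1 gastrocnemius (adjusted p = 0.00800) and by 1.37 after crush (adjusted p = 0.000464), and both calls were kept without any 1 array. In triceps Txnip read 9.82 to 10.68 in SOD1 and 10.71 to 11.15 in NTg, also without overlap, a difference of log2 -0.50 that was not called (adjusted p = 0.212).

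Nxn, nucleoredoxin, a thioredoxin-like protein, was called higher in 3 comparisons. It read 7.03, 7.09, 7.03 and 6.93 in NTg gastrocnemius against 8.11, 8.14, 8.12 and 8.47 in SOD1 gastrocnemius and 7.61, 7.79, 7.70 and 8.43 after crush. The differences were log2 1.19 (adjusted p = 0.000597) and 0.86 (adjusted p = 0.00539). Without the fourth crush array the crush difference was log2 0.68, and both calls were kept in 20 of 20 fits with 1 array left out. In triceps Nxn read 7.07, 7.00, 7.17 and 6.81 in NTg and 7.73, 7.64, 7.79 and 8.18 in SOD1, a difference of log2 0.82 (adjusted p = 0.0331), kept in 15 of 20 fits with 1 array left out.

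Txn1, the cytosolic thioredoxin that serves Prdx2, was called higher in SOD1 gastrocnemius. It read 9.08, 9.21, 8.88 and 8.85 in NTg and 9.54, 10.05, 9.87 and 10.00 in SOD1 gastrocnemius (log2 0.86, adjusted p = 0.0362; kept in 13 of 20 fits with 1 array left out). The crushed arrays read 9.10, 9.03, 9.19 and 10.73, so that only the fourth was above the NTg gastrocnemius range. In triceps Txn1 read 9.75 to 10.20 in SOD1 and 9.10 to 9.55 in NTg, without overlap, a difference of log2 0.62 that was not called (adjusted p = 0.271). Txn2, its mitochondrial counterpart, was called after crush and Txn1 in SOD1 gastrocnemius, and the difference between these patterns was not tested.

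**Figure D4:**
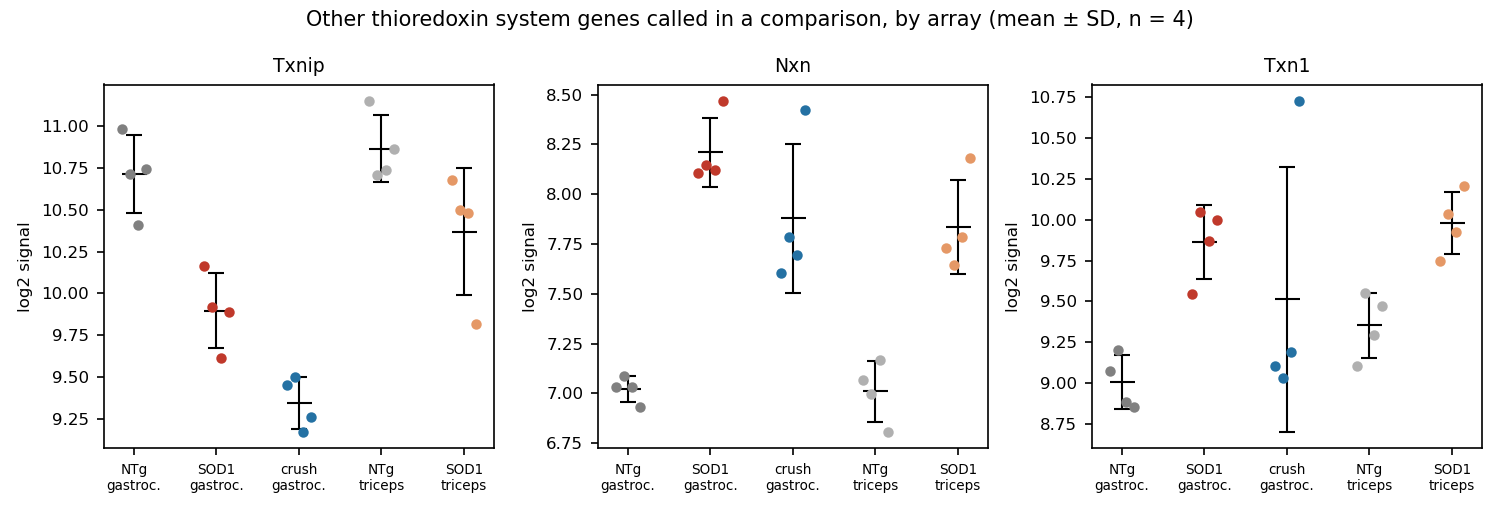
Log2 signal of Txnip, Nxn and Txn1 on every array (points) with group mean and SD (n = 4); the vertical axes differ. Txnip lies between 9.17 and 9.50 after crush and between 10.41 and 10.98 in NTg gastrocnemius, and Txn1 shows the fourth crush array at 10.73, apart from the other 3 (9.03 to 9.19).

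Genes of glutathione handling gave 1 call beside Gpx1. Of 13 tested genes of glutathione synthesis and transferases, Gstt1 alone was called, higher in SOD1 gastrocnemius (log2 0.99, adjusted p = 0.0246; kept in 16 of 20 fits with 1 array left out), and the list's median was log2 -0.08 there. The summed linear signal of its 16 genes on the table was 6663 to 7045 in NTg gastrocnemius, 5433 to 6525 in SOD1 gastrocnemius and 5936 to 6128 after crush. Both groups lay below NTg without overlap, but such a sum weights the brightest genes most. Gene by gene, 6 of the 13 tested genes were positive and 7 negative in each of these comparisons. None was called lower, and the median after crush was log2 -0.0022. Among 8 tested genes of Nrf2 control and response, Cbr1, a carbonyl reductase, was called higher in SOD1 gastrocnemius (log2 0.68, adjusted p = 0.0471; kept in 5 of 20 such fits) and none after crush or in triceps. Of 3 tested oxidant sources Aox1, an aldehyde oxidase that makes superoxide and hydrogen peroxide, was called higher in SOD1 gastrocnemius (log2 0.96, adjusted p = 0.00803) and after crush (log2 0.73, adjusted p = 0.0451; kept in 9 of 20 fits with 1 array left out, and adjusted p = 0.0935 without the fourth crush array). Aox1 was above every NTg gastrocnemius array on all SOD1 and crushed gastrocnemius arrays. In triceps it also separated, 7.68 to 8.26 in SOD1 against 6.58 to 7.35 in NTg, with a difference of log2 0.87 that was not called (adjusted p = 0.0834).

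Genes of the compartments that hold Cat, Sod2 and Txn2 gave few calls. Among 13 tested peroxisome genes, Pex7, an import receptor, was called lower in SOD1 gastrocnemius (log2 -0.41, adjusted p = 0.0388; kept in 13 of 20 fits with 1 array left out), and none was called after crush, where the median was log2 0.19. Of 46 tested respiratory chain genes none was called by limma in SOD1 gastrocnemius, SOD1 triceps or crushed gastrocnemius against NTg. Their medians were log2 -0.15, -0.40 and 0.03, and 45 of 46 and 46 of 46 were below 0 in the SOD1 comparisons of gastrocnemius and triceps.

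Markers of other cells also differed between SOD1 and NTg gastrocnemius, in both directions. Of 15 macrophage markers 13 were on the table and 10 were tested, and 7 of those were called higher in SOD1 gastrocnemius and 0 after crush, where all 10 differences were positive with a median of log2 0.30. Their summed linear signal was 920 to 1170 in NTg gastrocnemius, 1690 to 2463 in SOD1 gastrocnemius and 1032 to 1621 after crush. In SOD1 gastrocnemius 9 of 9 tested fibroblast markers were positive (median log2 0.34), and 3 of 4 adipocyte markers (0.83). Of 9 endothelial markers 2 were positive (median log2 -0.08), and of 3 Schwann cell and nerve markers 0 (-0.32). None of these 4 lists gave a call there. The part of macrophage, fibroblast or adipocyte RNA in the Gpx1 and Cat differences was not tested. After crush 12 of 13 skeletal muscle fibre markers were positive (median log2 0.22), and 0 of 9 slow fibre markers (median log2 -0.30), without a call. Their part in the Prdx2 and Txn2 differences was not tested. Of 12 blood and red cell markers, whose cells hold much catalase and Prdx2, 2 were on the table, and their summed signal was 263 to 362 in NTg, 121 to 206 in SOD1 and 122 to 301 in crushed gastrocnemius. The 1 tested marker of this list was called lower in SOD1 gastrocnemius (log2 -1.15) and was not called after crush (log2 -0.41). The part of blood RNA in the Cat and Prdx2 values was not tested.

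The probe sets of a gene agreed to different degrees over the 20 arrays. Correlations were 0.85 between the Cat sets, 0.76 between the brighter Sod2 sets and 0.71 to 0.90 among the Txn2 sets. Between genes, Prdx2 1418506_a_at and Txn2 1455640_a_at correlated at 0.83. All of these share the same arrays and group differences and are given as descriptions.

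The genes most like each member over the 20 arrays were taken as the 3 with the highest Pearson correlation to its brightest probe set. For Sod2 these were Msrb1 (0.958), Gfm1 (0.930) and Coq10a (0.925), and for Txn2 they were Lsm3 (0.871), Sdhaf4 (0.870) and Mrpl41 (0.850). Gpx1 was nearest to Akr1a1 (0.869), Serpinb6a (0.860) and 2210016F16Rik (0.846), and Prdx2 to Ppm1b (0.891), Mtx2 (0.889) and Sdhaf4 (0.888). Cat was nearest to Smarcd2 (0.870), Caprin1 (0.861) and Tspo (0.836). The nearest genes to Sod1 were less close, Cant1 (0.739), Mafk (0.733) and Ap2a2 (0.730). Within groups, after subtracting each group's mean, Sod2 and Msrb1 still correlated at 0.939, and Gpx1 and Akr1a1 at 0.779.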

How the data were processed

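RNA of 20 muscle samples was hybridised to arrays from biotinylated cRNA, per the labels' protocols. The deposited values are on a log2 scale, per the values themselves, and were made by the authors with MAS5 according to the submitters' processing notes; the version and target level of MAS5 were not found there. No scaling was added.

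Genes were named from the platform annotation, updated by gene ID: a single symbol was given for 9874 probe sets, of which 9862 matched, while 387 had more and 487 lacked one. Groups came from sample titles. All 20 arrays entered 1 linear model of the 5 groups in limma 3.58.1 (R 4.3.3; eBayes with a trend) after leaving out the lowest 30% of probe sets by mean. The 6 comparisons were adjusted by Benjamini-Hochberg over 7523 probe sets. Named genes were all members, up to 4 called genes a comparison from each pathway list by smallest adjusted p, and the 3 genes most correlated with each member. Wherever an array was left out, the model was refitted on the others. The fit was tested on simulated data.

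Members, lists and tests were chosen with earlier results of these data known. Alternatives were quantile and 75th percentile scaling, other filters, blocks, array weights, single arrays left out, averaged probe sets and an exact permutation test. Array number limits the precision.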

Additional observations from a re-analysis of the deposited data

Results flagged for a closer look

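Dixon's gap test was applied to each of the 65 groups of 4 arrays formed by the 13 probe sets, and it picked out 2. Chance alone picks out about 1 in 20 such groups. The fourth crush array was low on Sod2 1417193_at, at log2 9.65 against 10.42 to 10.57 on the other 3. The fourth SOD1 triceps array was low on the dim Sod2 set 1417194_at, at log2 4.17 against 4.98 to 5.08, and this set lies below the filter on level and entered no test.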

How the results depend on the processing

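The 77 single results gave 2261 pairs of a result and a changed setting. The sign changed in 34 of these pairs, in 17 results, none of them called. The count of member sets called in SOD1 gastrocnemius, 2, was 1 with no filter, with the muscles of a numbered mouse as a random block (consensus correlation 0.248) and without the variance trend, 4 with the compared arrays alone, 5 with array weights and 5 by the exact permutation test, without adjustment; leaving out 1 array gave 0 to 2. After crush, 4 became 3 with 75th percentile scaling, no filter, mouse as a random block or no variance trend, 5 with the compared arrays alone or the exact permutation test, 8 with array weights and 1 to 6 with 1 array left out, the 6 without crush array 4. Between SOD1 and crushed gastrocnemius, 0 became 6 with array weights and 4 by the exact permutation test. With 1 array left out the count was 0 to 3, the 3 without crush array 4. That last fit called 604 of all tested sets, where the fit on all arrays called 0. With probe sets averaged per gene, called genes went from 2 to 1 in SOD1 gastrocnemius and from 3 to 1 after crush. The cause of these moves was not tested.

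With the replicate number as a block, the member counts were 2, 0 and 4 in SOD1 gastrocnemius, SOD1 triceps and crush; same-numbered gastrocnemius and triceps arrays correlated at 0.57, -0.10, -0.037 and 0.62 in SOD1 and 0.24, 0.13, 0.21 and -0.087 in NTg, so the numbers were not taken to pair samples, and not every sample correlated best with its own number. Called probe sets over the table, 902, 18 and 311, became 1310, 104 and 494 with this block, 2512, 50 and 1245 with array weights and 1768, 27 and 403 with the compared arrays alone. Array weights called 1282 between SOD1 and crushed gastrocnemius, where the unweighted fit called 0.

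Signs changed with probe sets averaged for Sod2 1417193_at in SOD1 gastrocnemius (log2 0.0057), Prdx2 1418506_a_at in triceps (0.085) and between SOD1 and crush (0.096), and Cat 1416429_a_at between SOD1 and crush (-0.030) and in the muscle difference of SOD1 effects (-0.025). Array weights turned Gpx1 in triceps (-0.0098), Prdx2 1430979_a_at after crush (0.013) and Sod1 between NTg muscles (-0.023), and quantile and 75th percentile scaling turned Sod2 1417193_at between NTg muscles (0.0018 and 0.014).

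With 1 array left out, ranges that crossed 0 were, in SOD1 gastrocnemius, Txn2 1452782_a_at (-0.026 to 0.14); in triceps, Prdx2 1418506_a_at (-0.13 to 0.084), Txn2 1421557_x_at (-0.17 to 0.12), Txn2 1452782_a_at (-0.17 to 0.060) and Gpx1 (-0.039 to 0.23); after crush, Prdx2 1430979_a_at (-0.19 to 0.033); between SOD1 and crush, Cat 1416429_a_at (-0.032 to 0.20); in the muscle difference, Txn2 1421557_x_at (-0.050 to 0.24), Cat 1416429_a_at (-0.030 to 0.35) and Txn2 1452782_a_at (-0.017 to 0.21); and between NTg muscles, Sod2 1417193_at (-0.074 to 0.011), Sod1 (-0.11 to 0.14), Txn2 1455640_a_at (-0.012 to 0.25), Cat 1416430_at (-0.085 to 0.36) and Txn2 1421557_x_at (-0.023 to 0.27).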
